A study of Mus musculus with 2 samples.

Results

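The genes described here are the nuclear-encoded subunits of mitochondrial oxidative phosphorylation, read in the epidermis of imiquimod-treated mouse ears. They were chosen by name: rows of the expression table with a RefSeq transcript and a symbol of the Nduf (a, b, c, s or v), Sdh (a to d), Uqcr, Cox4 to Cox8 or Atp5 series, without symbols that end in -ps and a number. This rule found 90 of 26242 genes. It uses no measured value. Of the 90, 82 encode subunits: 36 of complex I, 4 of complex II, 8 of complex III, 19 of complex IV and 15 of complex V. The other 8 carry names of the same series but encode no subunit: the complex I assembly factors Ndufaf1, Ndufaf2, Ndufaf3 and Ndufaf4, the supercomplex factor Cox7a2l, Atp5s and Atp5sl (now Dmac2l and Dmac2 in RefSeq), and Cox4nb (now Emc8), which belongs to a complex of the endoplasmic reticulum. Ndufa4 and Ndufa4l2 are counted with complex IV, where the Ndufa4 protein resides.

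The samples were sheets of ear epidermis from C57BL/6 mice: 1 library of wild type and 1 of the K14 conditional Il9ra KO, in which the gene of the interleukin-9 receptor is deleted. Both groups received 5% imiquimod cream on the ears for 6 days, so no untreated skin is compared, and the wild-type library is itself from inflamed skin. K14 is keratin 14, a keratin of basal keratinocytes; the Cre line, the deleted part of the gene and the number of animals behind each library are not stated in any source used here. With 1 library per genotype there was no replicate and no test, and every difference below is one between 2 libraries. Values are in FPKM (fragments per kilobase, scaled to library size), which allow levels of different genes to be compared per length. Where a gene has a pair of values, the wild-type library comes first and the knockout library second.

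Oxidative phosphorylation is carried out in the inner mitochondrial membrane. Complex I (NADH dehydrogenase) and complex II (succinate dehydrogenase) pass electrons to ubiquinone, complex III (cytochrome bc1) passes them on to cytochrome c, and complex IV (cytochrome c oxidase) reduces oxygen. Complexes I, III and IV pump protons, and complex V (ATP synthase) uses the gradient to make ATP. Complex II is built of nuclear-encoded subunits alone, whereas the others also hold subunits of the mitochondrial genome, which were not analysed here. In epidermis, keratinocytes draw on glycolysis as well as on respiration, and mitochondria are lost as cells cornify.

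Promoter sequences were taken from RefSeq (GRCm38.p6, 250 bases before to 50 bases after the first listed start of each gene) because binding sites of the same few factors are a textbook feature of these genes. The table matched 67 of the 82 subunit genes, 64 of them with at least 1 FPKM in either library. Cores of 4 motifs were searched on both strands: GCGCATG for NRF1 (nuclear respiratory factor 1), CCGGAAG for ETS factors such as GABPA (also called NRF2), AAGATGG for YY1, and TGACGTC for factors of the CREB and ATF family. A match to NRF1 on one strand can overlap a match on the other, and a promoter was then counted once. The examples that follow were chosen after the matches were seen, and capitals mark the matches. Atp5k, the e subunit of ATP synthase, at chr5:108434350-108434649 (minus strand), holds overlapping NRF1 cores on both strands and an ETS core. Ndufb8, an accessory subunit of complex I, at chr19:44555393-44555692 (minus strand), holds an NRF1 and a YY1 core. Atp5e, the epsilon subunit of ATP synthase and the subunit with the largest difference between the libraries among those of at least 5 FPKM, at chr2:174464052-174464351 (minus strand), holds an ETS core. Cox8a, at chr19:7217567-7217866 (minus strand), and Cox8b, at chr7:140900397-140900696 (minus strand), are isoforms of the same subunit with very unequal levels; Cox8a holds ETS cores and a CREB and ATF core, and Cox8b has no match.
Atp5k: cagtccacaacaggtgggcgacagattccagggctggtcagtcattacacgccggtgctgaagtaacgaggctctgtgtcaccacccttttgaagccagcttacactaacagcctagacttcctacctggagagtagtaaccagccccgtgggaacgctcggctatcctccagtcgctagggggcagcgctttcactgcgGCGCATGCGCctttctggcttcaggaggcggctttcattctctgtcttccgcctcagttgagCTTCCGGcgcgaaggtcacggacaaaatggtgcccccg
Ndufb8: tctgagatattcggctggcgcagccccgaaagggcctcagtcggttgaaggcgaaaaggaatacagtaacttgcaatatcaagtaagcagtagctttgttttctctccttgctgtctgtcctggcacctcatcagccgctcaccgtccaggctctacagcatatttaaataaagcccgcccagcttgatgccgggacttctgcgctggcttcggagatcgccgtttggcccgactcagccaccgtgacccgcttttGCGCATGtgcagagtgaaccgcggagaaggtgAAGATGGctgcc
Atp5e: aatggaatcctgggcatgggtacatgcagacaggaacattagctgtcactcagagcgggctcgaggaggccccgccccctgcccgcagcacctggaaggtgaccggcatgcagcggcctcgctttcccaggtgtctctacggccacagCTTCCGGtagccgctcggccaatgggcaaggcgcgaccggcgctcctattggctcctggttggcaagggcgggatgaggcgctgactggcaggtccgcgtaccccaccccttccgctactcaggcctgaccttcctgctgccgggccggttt
Cox8a: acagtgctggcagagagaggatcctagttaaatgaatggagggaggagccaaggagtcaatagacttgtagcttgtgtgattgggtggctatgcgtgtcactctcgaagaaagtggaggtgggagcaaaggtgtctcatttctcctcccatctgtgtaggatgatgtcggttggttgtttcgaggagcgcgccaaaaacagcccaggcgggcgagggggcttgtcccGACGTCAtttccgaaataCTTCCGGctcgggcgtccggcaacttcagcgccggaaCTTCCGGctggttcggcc
Cox8b: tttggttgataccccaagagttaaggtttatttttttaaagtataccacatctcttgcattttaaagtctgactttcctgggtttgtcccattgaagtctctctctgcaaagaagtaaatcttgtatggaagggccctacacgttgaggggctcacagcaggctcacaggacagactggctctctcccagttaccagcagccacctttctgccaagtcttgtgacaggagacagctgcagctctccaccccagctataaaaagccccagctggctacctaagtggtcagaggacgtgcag

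Among the 64 subunit promoters past the 1 FPKM filter, 13 (20.3%) held the NRF1 core, compared with 7.31% of 9219 promoters of genes past the same filter and 4.04% of all 27025 promoters. The YY1 core was found in 10 (15.6%), against 7.54% and 6.48%. The ETS core was found in 15 (23.4%), close to the 19.1% of expressed genes and above the 9.12% of all promoters. The CREB and ATF core was found in 6 (9.38%), against 5.84% and 3.33%. Expressed genes in general have promoters rich in G and C, with a median of 61% in that set and 58.5% in the subunit promoters, so the expressed set is the closer background. At least 1 of the NRF1, ETS and YY1 cores was found in 31 of the 64 (48.4%), against 30.3% of expressed genes. The 3 matched promoters of subunits below 1 FPKM, those of Cox6b2, Cox7b2 and Cox8b, held none of the 4 cores. Neither did those of Ndufa4 and Atp5b, the most abundant subunits of complexes IV and V.

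Of the 10 subunit promoters with the YY1 core, 8 held it after the start of the transcript and on the transcript's own strand. These are 12.5% of the 64, compared with 2.69% of those of expressed genes. It began 23 to 39 bases into the transcript of Ndufa3, Ndufa9, Ndufb8, Ndufc1, Ndufs4, Ndufs6, Ndufs7 and Atp5j2, 7 of which belong to complex I. In all 8 the ATG inside these letters is an annotated start codon in GENCODE M21, as in the Ndufb8 sequence above. The letters of the YY1 core are therefore also the letters around the start of translation.

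Subunit genes were among the most abundant transcripts of the epidermis in both libraries. The 76 subunits with at least 1 FPKM in either library had a median of 143 (wild type) and 142 FPKM (knockout), where the median over all 11886 genes past this filter was 11.3 and 11.2 FPKM. The median subunit stood at percentile 95.2 and 95.3 of those genes. All 90 genes together made up 2.38% (wild type) and 2.43% (knockout) of all FPKM. Across the 84 genes of the rule that passed the filter, the log2 levels of the libraries correlated with Pearson's r = 0.996 (across genes, which are no replicates).

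The complexes lay at different levels, in the same order in both libraries. Medians over subunits past the filter were, in the wild-type library, 359 FPKM for complex IV, 297 for complex V, 249.2 for complex III, 102 for complex I and 55.6 for complex II. In the knockout library they were 391, 319, 233, 97.5 and 47.5 FPKM. Within a complex, levels in the wild-type library ran over a range of 3.75-fold in complex V, 6.03-fold in complex III, 7.36-fold in complex II, 9.04-fold in complex I and 18.6-fold in complex IV, the last over the 12 genes with at least 1 FPKM in both libraries. In the knockout library these ranges were 3.12-fold, 5.94-fold, 9.27-fold, 9.17-fold and 20.2-fold. The range of complex IV was set by Ndufa4l2, the lowest of its 12 genes, at 34.9 and 36.2 FPKM. Next lowest was Cox7a2, at 115 and 97.4 FPKM. Complex I holds nearly all of its subunits in equal number, so mRNA levels per length were less even than the enzyme's make-up.

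**Figure D1:**
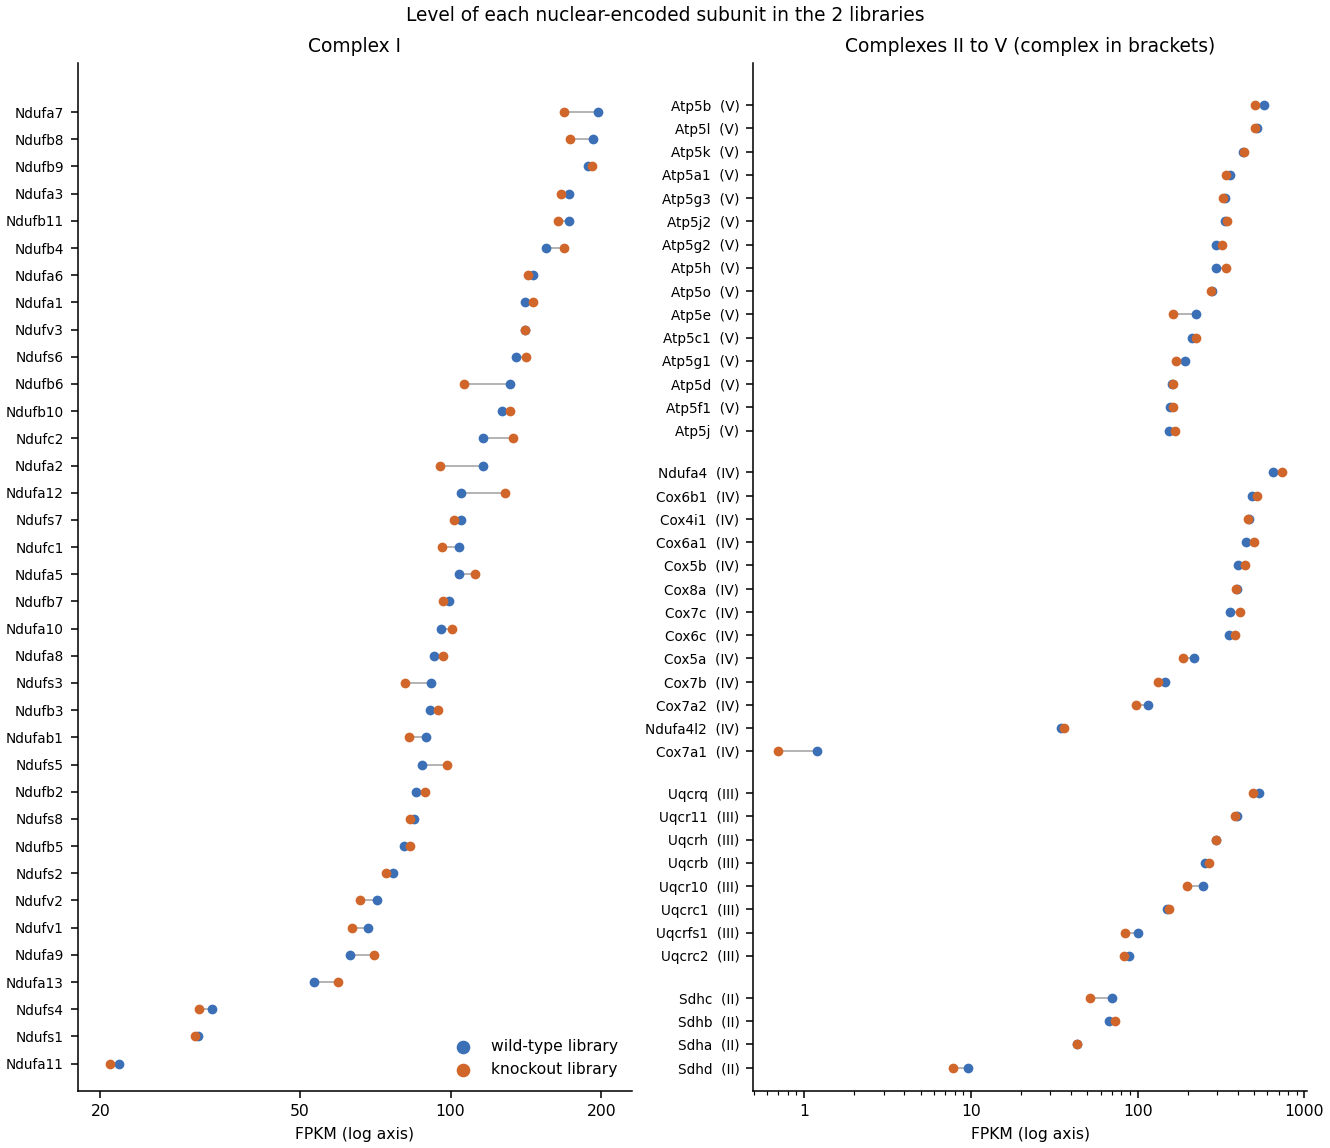
FPKM on a log axis of each subunit with at least 1 FPKM in either library, complex I on the left and complexes II to V on the right; each dot is 1 library (blue wild type, orange knockout) and a line joins the libraries. The dots of a gene lie close together compared with the distance between genes, from Ndufa4 at 649.6 and 733 FPKM to Cox7a1 at 1.201 and 0.6995 FPKM.

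Between the libraries, no gene of the 84 past the filter was 2-fold or even 1.5-fold higher or lower on the log2(FPKM + 1) scale. Over all 11886 genes past the filter, 0.412% reached 2-fold with the higher level in the knockout and 0.345% with the lower, and at 1.5-fold the shares were 1.31% and 1.44%. All 84 thus lay within 1.5-fold, where 97.2% of all genes did. A count of 0 of 84 is therefore close to what the share over all genes would give. Within 1.2-fold lay 75 of the 84, or 89.3%, where 84.5% of all genes did. With a mean of at least 20 FPKM the shares were closer, 89.5% of 76 genes of the rule and 88.3% of all 4083 genes. Among the same 76 and 4083 genes, 50% and 59.6%, respectively, were lower in the knockout library. In the knockout library 44 of the 84 were lower and 40 higher, and 55.6% of all genes were lower. Their median difference in log2 was -0.01, with knockout over wild type, and that of all genes -0.02; the sign is not stable, since other scalings of the libraries turn the median of the 84 to 0.02 (upper quartile) or 0.01 (centred on the median gene). In the authors' deposited table the smallest p among the 90 genes was 0.0872 and the smallest q 0.999; 0 of the 90 had p below 0.05, where 2.18% of the expressed rows of that table did, and 0 had q below 0.05, where 0.0761% of its RefSeq rows did. That test sets 1 library against the other and has no spread between animals. Of the 90 genes, 13 have a near-identical copy elsewhere among annotated transcripts, which could share reads, so their values are uncertain; among those described below these are Ndufa12, Ndufs3, Cox7c, Atp5c1, Atp5g2, Atp5h, Atp5k and Atp5l.

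**Figure D2:**
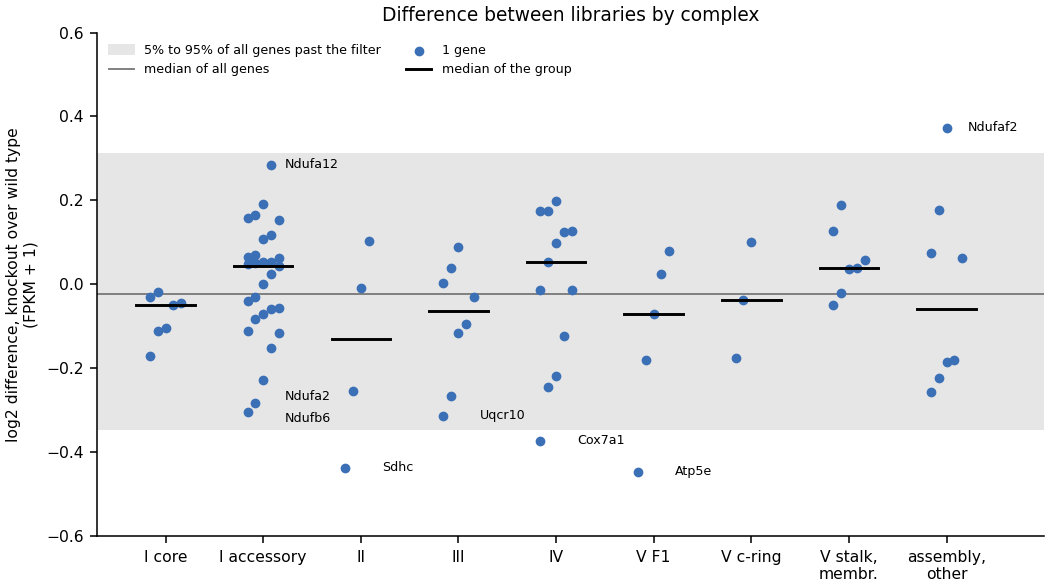
Log2 difference between the libraries, knockout over wild type on the FPKM + 1 scale, for each gene past the filter, by complex, with complexes I and V split by class and the genes that encode no subunit as 1 group; dots are genes, black bars group medians, the grey band 5% to 95% of all 11886 genes and the grey line their median. Medians of the groups drawn run from -0.13 (complex II) to 0.05 (complex IV), and Atp5e, Sdhc, Cox7a1 and Ndufaf2 lie outside the band.

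Complex I has 7 nuclear-encoded core subunits, which form the arm where electrons pass from NADH to ubiquinone, and many accessory subunits around them. Over all 36 genes 17 were higher and 19 lower in the knockout library; the median of -0.02 becomes 0.01 after upper-quartile scaling. All 7 core subunits were slightly lower in the knockout library, by log2 differences of -0.02 to -0.17, with a median of -0.05, but those of Ndufs1 and Ndufs8 change sign after upper-quartile scaling, and that of Ndufs1 also after centring. Ndufs3 differed most of them, at 91.3 (wild type) and 81.0 FPKM (knockout). Ndufv1, which binds NADH, was at 68.3 and 63.5 FPKM, and its partner Ndufv2 at 71.3 and 66.0 FPKM. Ndufs1, the largest core subunit, was at 31.4 and 31.0 FPKM and thus level between the libraries. Of 29 accessory subunits, 17 were higher and 12 lower, with a median of 0.04. Ndufb2, among them, shares its row of the table with the neighbouring gene Adck2. Over all genes past the filter 55.6% were lower. Among all genes with a mean of at least 20 FPKM, the lower share varied with transcript length. It was 59.0% below 600 bases, 46.0% at 600 to 1000, 53.8% at 1000 to 2000, 62.3% at 2000 to 4000 and 69.2% above. Most core transcripts are over 1000 bases long, and most accessory ones are shorter. Whether core and accessory subunits differ in this respect, apart from length, was not tested.

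The core subunits also had lower levels than the accessory ones. Medians were 76.9 FPKM against 105.2 in the wild type and 74.5 FPKM against 106.3 in the knockout. Levels, too, varied with transcript length among genes of the rule with a mean of at least 20 FPKM. Their wild-type medians were 222 FPKM below 600 bases, 158 at 600 to 1000, 89.9 at 1000 to 2000 and 89.2 at 2000 to 4000. Whether core and accessory levels differ apart from length was not tested. Ndufa7, Ndufb8 and Ndufb9, accessory subunits of the matrix arm (Ndufa7) and the membrane arm, were the most abundant of complex I. Ndufa7 was at 197 (wild type) and 168 FPKM (knockout), Ndufb8 at 193 and 173, and Ndufb9 at 188 and 192. The lowest was Ndufa11, a membrane-arm subunit, at 21.8 and 20.9 FPKM. The largest differences in complex I were in accessory subunits and went both ways. Ndufb6 was at 131 (wild type) and 106 FPKM (knockout), or a difference in log2 of -0.30. Ndufa2 was at 116 and 95.1 FPKM, or -0.28. Ndufa12 (ENSMUSG00000020022, plus strand of chromosome 10, 94198720 to 94221443 in GRCm38) went the other way, at 105 and 128 FPKM, or 0.28. Ndufa12 and the assembly factor Ndufaf2 are paralogs, and Ndufaf2 is displaced by Ndufa12 late in the assembly of the complex. Ndufaf2 had the highest log2 difference among genes of the rule with at least 5 FPKM in either library, 0.37, at 22.5 and 29.4 FPKM. A further row of the same name, assembled without a RefSeq transcript and not counted here, was at 0.214 and 0.458 FPKM. The other 3 assembly factors of the rule were lower, Ndufaf1 at 4.86 and 4.02 FPKM, Ndufaf3 at 11.2 and 9.23, and Ndufaf4 at 7.09 and 6.11.

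Complex II, which is also an enzyme of the tricarboxylic acid cycle, had the lowest transcripts of the 5 complexes and the most negative median, -0.13 over 4 genes. Sdha, the flavoprotein, was level at 43.5 and 43.3 FPKM, and Sdhb, the iron-sulfur subunit, was at 67.7 and 72.8 FPKM. The membrane anchors were lower in the knockout library. Sdhc (ENSMUSG00000058076, minus strand of chromosome 1, 171127165 to 171150603) was at 70.4 (wild type) and 51.7 FPKM (knockout), 1.36-fold lower, with p = 0.0872 in the authors' deposited table. Sdhd was at 9.56 and 7.85 FPKM, about 285 and 304 fragments by the estimated depth. It was 7.36-fold below Sdhc in the wild-type library and 9.27-fold below Sdhb in the knockout library, the highest subunit of the complex in each, although each enzyme holds 1 copy of each subunit.

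Complex III showed a median log2 difference of -0.06 over 8 genes, 5 lower (Uqcr11 only without upper-quartile scaling) and 3 higher. Uqcrq, Uqcr11 and Uqcrh, small accessory subunits, were the most abundant, at 534 and 493 FPKM, 393 and 385 FPKM, and 294 and 295 FPKM. The largest difference was in Uqcr10, another small subunit (ENSMUSG00000059534, minus strand of chromosome 11, 4701973 to 4704342), at 245 and 197 FPKM. Uqcrfs1, the Rieske iron-sulfur protein and the catalytic subunit among the 8, was at 101 (wild type) and 83.6 FPKM (knockout), or a difference in log2 of -0.27. Cyc1, cytochrome c1, is the other nuclear-encoded catalytic subunit and lies outside the naming rule; it was at 116 and 103 FPKM. Uqcrc1 and Uqcrc2, the large core proteins, had 151 and 155 FPKM (Uqcrc1) and 88.5 and 82.9 FPKM (Uqcrc2), so that both lay within 1.2-fold.

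Complex IV had the highest median, 0.05 over 13 genes past the filter, 7 higher and 6 lower, 2 of which (Cox4i1 and Cox8a) change sign under other scalings. Its summed level was 4066 (wild type) and 4294 FPKM (knockout). Ndufa4, once counted with complex I, was the most abundant of the 90 genes, at 649.6 and 733 FPKM. Cox6b1 was at 485 and 519 FPKM and Cox6a1 at 444 and 501 FPKM, and these 3 were higher in the knockout library. Cox7c, Cox6c and Cox5b were higher too, at 359 and 412 FPKM, 351 and 384 FPKM, and 401 and 438 FPKM. Cox7a2 and Cox5a were lower, at 115 and 97.4 FPKM and 219 and 188 FPKM, respectively. Cox7b was at 145 and 133 FPKM. All of these differences were below 1.2-fold.

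Several complex IV subunits exist as isoforms of different tissues, and the epidermis held almost only the general ones. Cox4i1 was at 464 and 459.5 FPKM, and Cox4i2, an isoform of lung and of low oxygen, at 0.365 and 0.316 FPKM. Cox8a was at 394 and 391 FPKM, whereas Cox8b, the isoform of heart and skeletal muscle, was at 0.437 and 0.190 FPKM, about 4 and 2 fragments. General isoforms made up 99.8% or more of the summed level of Cox4, Cox6a, Cox6b and Cox8 in both libraries. The other muscle isoforms were Cox6a2, at 0.520 (wild type) and 0.148 FPKM (knockout), and Cox7a1, at 1.201 and 0.6995 FPKM. These values stand for about 9 and 3 fragments of Cox6a2 and about 11 and 9 of Cox7a1. The testis isoform Cox6b2 was at 0.564 and 0.946 FPKM, and the testis isoforms Cox7b2 and Cox8c were listed at 0 in both libraries. At this depth, differences in isoforms of so few fragments were not detectable. Only Cox7a1 of these passed the filter, through the wild-type library; its log2 difference of -0.37 became -0.70 with a pseudocount of 0.1 FPKM and -0.12 with one of 5 FPKM.

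Markers of skeletal muscle, a tissue that uses the muscle isoforms, were near the floor in both libraries. Of 12 such genes 1 passed the filter, Mylpf at 5.16 and 5.69 FPKM; Mb, Myh4, Myl1 and Pvalb were listed at 0 in both, and the summed level was 6.09 and 6.63 FPKM. Ndufa4l2, a paralog of Ndufa4 that is induced through the hypoxia factor HIF-1, was well above the floor, at 34.9 (wild type) and 36.2 FPKM (knockout). It made up 5.10% and 4.71% of the summed level of Ndufa4 and Ndufa4l2.

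**Figure D3:**
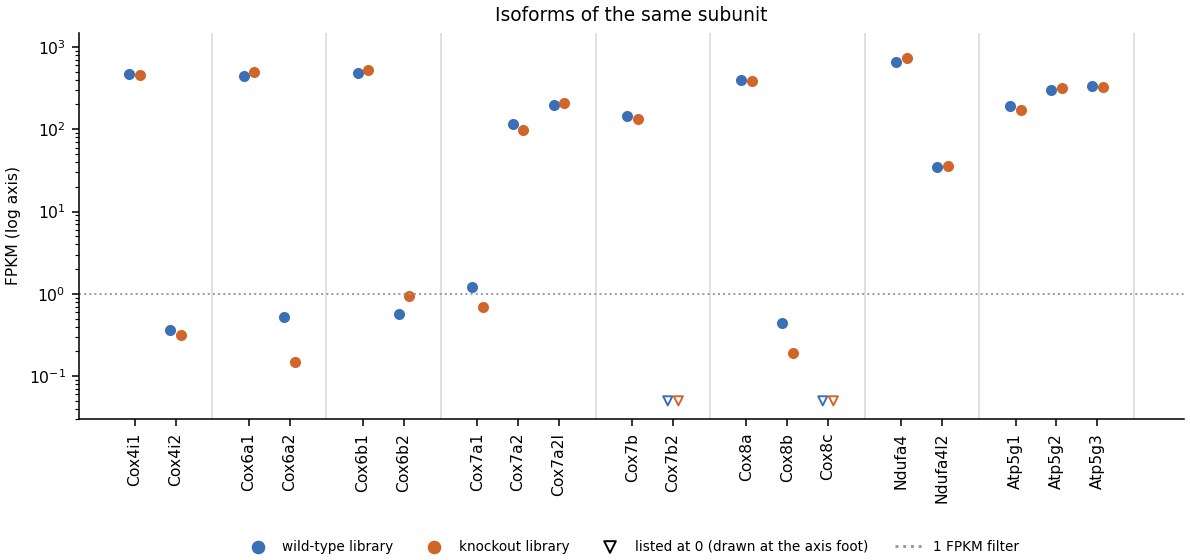
FPKM on a log axis of the isoforms of each subunit (and of Cox7a2l beside the Cox7a isoforms) in the wild-type (blue) and knockout (orange) library; open triangles are genes listed at 0, drawn at the foot of the axis, and the dotted line is the 1 FPKM filter. The general isoforms of complex IV lie between 97.4 and 733 FPKM, the muscle and testis isoforms at or below 1.201 FPKM, and the 3 Atp5g genes within 2-fold of each other.

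Complex V showed a median log2 difference of 0.02 over 15 genes, 8 higher and 7 lower (Atp5o only without upper-quartile scaling or centring). Its medians were -0.07 in the F1 head, -0.04 in the c-ring genes and 0.04 in the stalk and membrane subunits. Its catalytic F1 head is made of 5 subunits. Atp5b, the catalytic beta subunit, was at 576 (wild type) and 508 FPKM (knockout), and Atp5a1, the alpha subunit, at 356 and 339 FPKM. The gamma and delta subunits, Atp5c1 and Atp5d, were at 211 and 223 and 161 and 163 FPKM, respectively. Alpha and beta, of which the head holds the most copies, were above the other 3 in both libraries. Atp5e, the epsilon subunit (ENSMUSG00000016252, minus strand of chromosome 2, 174461072 to 174464105), had the most negative log2 difference among genes of the rule with at least 5 FPKM in either library, -0.45, at 222 (wild type) and 163 FPKM (knockout). It was 1.36-fold lower, with p = 0.08995 in the authors' deposited table, and rests on about 2268 and 2159 fragments of a transcript of 421 bases.

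The c-ring of ATP synthase is encoded by Atp5g1, Atp5g2 and Atp5g3, whose mature proteins are identical and whose import sequences differ. All 3 were abundant in the epidermis. Atp5g1 was at 192 and 170.3 FPKM, Atp5g2 at 297 and 319 FPKM, and Atp5g3 at 334 and 325 FPKM. Their sum was 823 (wild type) and 814 FPKM (knockout). Atp5g1 made up 23.4% and 20.9% of it, Atp5g2 36.1% and 39.2%, and Atp5g3 40.5% and 39.9%. Of the 7 stalk and membrane subunits 5 were higher and 2 lower in the knockout library. They ran from Atp5l, at 523 and 505 FPKM, to Atp5h, at 297 and 339 FPKM. Atp5o, among the lower ones at 279 and 275 FPKM, changes sign after upper-quartile scaling and after centring. Atp5k, whose promoter is printed above, was at 426 and 437 FPKM and thus level between the libraries.

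Cox7a2l, also known as SCAF1, joins complexes III and IV into supercomplexes and was at 198 (wild type) and 207 FPKM (knockout). It was more abundant per length than its paralog Cox7a2 in both. Atp5s, Atp5sl and Cox4nb were low, at 3.96 and 4.61 FPKM, 7.63 and 8.09 FPKM, and 7.92 and 6.87 FPKM.

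Other genes of respiration differed as little. Over 9 lists of assembly factors, carriers, cycle and pyruvate dehydrogenase enzymes and regulators, 101 genes outside the naming rule passed the filter. Of these, 60 were lower in the knockout and 41 higher, the median being -0.04, and 0 were 1.5-fold apart. Over all 11886 genes past the filter 55.6% were lower, and 97.2% lay within 1.5-fold. Of 51 assembly factors of the 5 complexes (the 4 above included), 26 were higher and 25 lower. Those of complex I had the lower level in the knockout in 12 of 16 cases (-0.10 as the median), those of complex II in 2 of 4 (-0.02, which changes sign under both other scalings), those of complex III in 2 of 6 (0.15), those of complex IV in 8 of 21 (0.01) and those of complex V in 1 of 4 (0.07), and in 0 of 4 under both other scalings. Assembly factors were less abundant than subunits, with medians of 10.8 and 9.23 FPKM. Acad9, a complex I assembly factor, was the most abundant of its list at 68.2 and 65.4 FPKM; Ndufaf8 was at 35.5 and 27.2 FPKM and Nubpl, which delivers iron-sulfur clusters, at 3.91 and 5.11 FPKM. Sdhaf3 was at 9.91 and 7.09 FPKM, the largest difference of all 9 lists on the log2(FPKM + 1) scale, though not with a pseudocount of 5 FPKM. Uqcc2 was at 114 and 94.6 FPKM, Cox20 at 32.0 and 41.7 FPKM, and Coa5 at 27.6 and 21.9 FPKM. Atpif1, the inhibitor of ATP hydrolysis by complex V, was as abundant as the subunits, at 395 and 422 FPKM.

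Of 16 electron carriers and further subunits 10 were lower, with a median of -0.04, where 55.6% of all genes past the filter were lower. Cycs, cytochrome c, was at 36.3 and 32.9 FPKM, and the small ATP synthase subunits Usmg5 and 2010107E04Rik went opposite ways, at 308 and 337 FPKM and 353 and 289 FPKM, respectively. Among carriers, porins and uncoupling proteins, 6 of 7 past the filter had the lower level in the knockout (median -0.02), but only 3 of 7 were lower after upper-quartile scaling or centring. Slc25a5, an ADP and ATP carrier, was at 655 and 634 FPKM, the phosphate carrier Slc25a3 at 220.2 and 192 FPKM, and the porin Vdac1 at 223 and 237 FPKM. The uncoupling protein Ucp2 was at 53.5 and 52.7 FPKM, and Ucp1, that of brown fat, at 0.215 and 0.325 FPKM. The tricarboxylic acid cycle list also held the pyruvate dehydrogenase subunits Pdha1, Pdhb and Dlat. Of its genes 13 of 17 were lower by small amounts (median -0.07), and 12 of 17 after upper-quartile scaling or centring. Of all genes with a mean of at least 20 FPKM, 59.6% were lower. Cs, citrate synthase, was at 157 and 150.1 FPKM, Mdh2 at 178 and 183 FPKM, and Idh2, the largest difference, at 32.4 and 38.0 FPKM.

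Regulators of mitochondrial biogenesis included 9 of 14 with the lower level in the knockout (median -0.09), where 55.6% of all genes past the filter had it. The coactivator Ppargc1a (PGC-1 alpha) was near the floor, at 0.0443 and 0.0361 FPKM, while its relatives Ppargc1b and Pprc1 were at 2.14 and 1.81 FPKM and 16.99 and 15.9 FPKM, respectively. The factors whose motifs were searched were all expressed: Nrf1 at 10.8 and 9.62 FPKM, Gabpa at 11.99 and 12.3 FPKM, and Yy1 at 32.0 and 29.8 FPKM. Esrra, an orphan receptor of mitochondrial genes, was at 25.5 and 27.6 FPKM and Tfam, which packs mitochondrial DNA, at 6.04 and 6.03 FPKM.

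**Figure D4:**
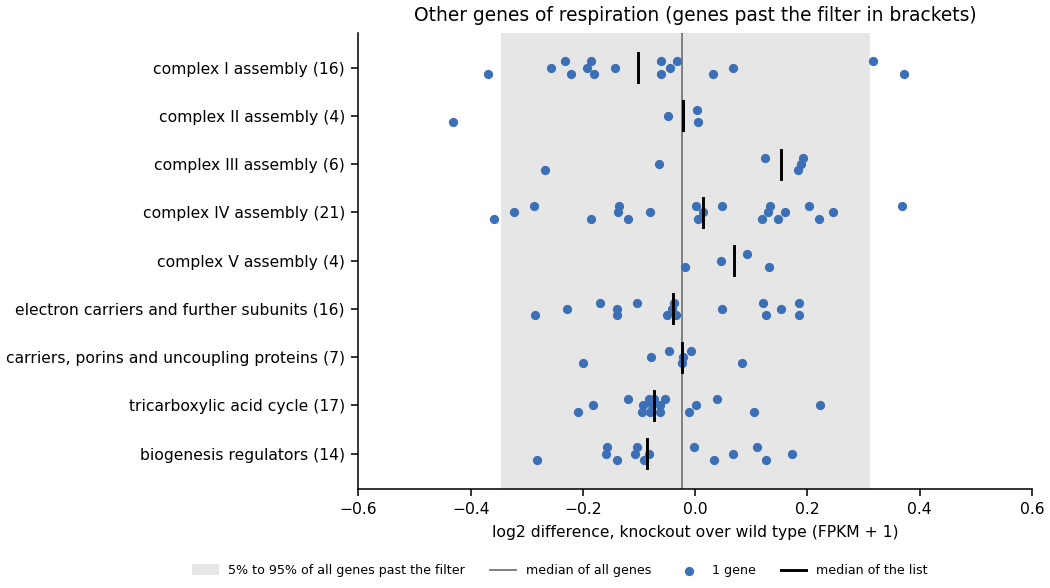
Log2 difference between the libraries, knockout over wild type on the FPKM + 1 scale, for the genes of 9 lists that passed the filter (their number in brackets; complex I assembly includes the 4 Ndufaf genes of the rule); dots are genes, black bars list medians, and the grey band spans 5% to 95% of all 11886 genes. List medians run from -0.10 (complex I assembly) to 0.15 (complex III assembly), all inside the band.

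By the spacing of low FPKM values, the sequencing depth was estimated as about 24200000 fragments (wild type) and 31400000 fragments (knockout). The 76 genes of the rule with a mean of at least 20 FPKM then rest on about 288 to 26711 fragments in the wild-type and 358 to 30615 in the knockout library, before any difference between animals. The targeted gene, Il9r, was listed at 0.0393 and 0.0106 FPKM, about 3 and 1 fragments, too few to check the genotype labels. Both libraries carried the keratinocyte markers of their label: basal genes summed to 12374 and 13307 FPKM and suprabasal genes to 22768 and 23663 FPKM. Markers of other cells that differed were those of Langerhans cells (5 of 6 lower in the knockout library, sums of 739 and 511 FPKM). Those of hair follicle (6 of 6 lower, 103 and 92.8) and melanocytes (5 of 5 lower, 19.5 and 16.3) differed too. Over all genes past the filter 55.6% were lower. Gata3 made up most of the hair follicle sum, at 86.1 and 83.9 FPKM. The rest of that list was low: Krt71 at 5.17 and 1.92 FPKM, Krt25 at 4.80 and 2.26, and Tchh at 4.13 and 2.76. Krt27 was at 2.09 and 1.39 FPKM and Krt28 at 1.09 and 0.601. Sebocyte genes summed to 1093 and 1117 FPKM and T cell genes to 67.8 and 69.3. The brown adipocyte list, whose Cidea and Elovl3 are also sebaceous genes, summed to 222 and 224. Its genes went different ways, with Dio2 at 30.8 and 17.5 FPKM, Cidea at 54.1 and 67.8, and Elovl3 at 137 and 139. Adipocyte, fibroblast and endothelial genes each summed to less than 3 FPKM in both libraries, with Adipoq, Plin1, Cdh5 and Kdr listed at 0, and the 4 testis germ cell genes were listed at 0. In such bulk samples fewer cells of a type and less RNA per cell cannot be told apart, and the part of these cells in the differences above was not tested.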

How the data were processed

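RNA of epidermal sheets (dispase II, 1 mg/ml, 37 °C, 1 h) was sequenced after TruSeq mRNA preparation, per the labels' protocols, as 1 library of wild-type and 1 of knockout mice. TopHat2 2.0.13, Cufflinks 2.2.1 and mm10 are named in the submitters' processing notes; no source used here states their options, the annotation, the strand setting or how libraries were scaled. The authors deposited FPKM per gene, with the log2 fold, a statistic (unit score), p-value and q-value of their comparison, per the file headers.

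Of 29246 rows, 26264 had a RefSeq transcript and gave 26242 genes, 22 names being summed. Differences are log2 of knockout over wild-type FPKM after adding 1 FPKM, which understates changes of low genes; a gene was kept if either library reached 1 FPKM. With 1 library per genotype no test was run. Fragment numbers were estimated from the smallest steps of FPKM times length. They use the full transcript length, so those of short transcripts may be too high. Named genes are the 3 most abundant and the 3 with the largest difference (at least 5 FPKM) of each complex and pathway list, the isoform groups, the Sdh genes and genes below the filter; others were named for their role after their values were seen. The members and lists were chosen with earlier results of these data known. Positions are from GENCODE M21 (GRCm38) and promoters from RefSeq (GRCm38.p6). Copies were sought with blastn 2.17.0+ (at least 95% identity over 50% of the length). Scripts used Python 3.11.15, numpy 2.4.6 and pandas 2.3.3 and were tested on simulated data. Alternatives were the pseudocount, the filter, scaling between libraries, membership and the fold threshold.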

Additional observations from a re-analysis of the deposited data

How the results depend on the processing

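No gene of the rule that passed the filter reached 2-fold in either direction under any alternative. At 1.5-fold, with a pseudocount of 1 FPKM, the count was also 0, but with one of 0.1 FPKM Cox7a1 was past it, at -0.70. The number lower in the knockout library, 44 of 84, ran from 36 after upper-quartile scaling to 47 of 90 without a filter. The median log2 difference of -0.01 became 0.02 after upper-quartile scaling and 0.01 after centring. Complex medians kept their sign in complexes II, III and V; that of complex I became 0.01 after upper-quartile scaling, and that of complex IV was 0 without a filter. Of 455 values of 81 named genes, 4 moved by more than 0.1, those of Cox7a1, Nubpl and Sdhaf3, all under another pseudocount. Genes below the filter were left out of these values under another pseudocount, and several of them moved further. With a pseudocount of 0.1 FPKM, Cox6a2 went from -0.405 to -1.32, Cox8b from -0.272 to -0.887, Cox6b2 from 0.315 to 0.655 and Cox4i2 from -0.053 to -0.163. Differences close to 0 changed sign with scaling for Atp5o, Cox4i1, Cox8a, Ndufs1, Sdha, Ndufa6, Ndufs8 and Uqcr11. No paired analysis was possible because the labels carry no replicate numbers and each genotype has 1 library. The difference between animals is unknown, so no difference here can be set against it.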

Other observations

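The 90 genes of the rule have short transcripts, with a median of 786 bases against 2795 for all genes past the filter. They run from 315 to 4942 bases, the longest being that of Cox4nb, which encodes no subunit. Of the 90, 56 are under 1000 bases, where 8.07% of all genes past the filter with a known length are. The 13 genes with a near-identical copy were higher in the knockout library in 9 cases and lower in 4, with a median log2 difference of 0.08. The 71 without one that passed the filter were higher in 31 cases and lower in 40, with a median of -0.03. Atp5l had the most copies, 9. Genes of cytosolic ribosomal proteins, another set of short and abundant transcripts, had a median of -0.08 over 79 genes. The 90 genes lie on 19 chromosomes, with 10 of them on chromosome 7.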
